A study of Arabidopsis thaliana with 12 samples.

Results

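The heat response of wild-type (WT) germinating seeds of Arabidopsis thaliana was described from 6 of the 12 RNA-seq libraries of the series. Of these, 3 were WT seeds heated at 45 °C for 2 h and 3 were WT seeds left unheated (WT normal), both at 1 day after imbibition, with RNA taken at once. The libraries were chosen by their titles, and the response is seen at a single time and temperature. The remaining 6 libraries were seeds of atcyp18-1, in which the cyclophilin gene CYP18-1 is mutated (the kind of allele and the ecotype are not given in the labels), with and without heat, and they enter below through the shared estimate of the spread and 1 test of a difference. Seeds of all groups were surface-sterilised, kept at 4 °C for 2 days and plated on MS agar, and polyadenylated RNA was taken from whole seeds, so that embryo, endosperm and seed coat were measured together. Separate seed batches within a group are not stated in the labels, so p-values measure only the spread between these libraries, which may be technical.

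When plant cells are heated, unfolded proteins draw chaperones away from heat shock factors, which then bind heat shock elements in promoters and switch on chaperone genes. Small heat shock proteins hold unfolded proteins, while HSP70, HSP90 and HSP100 proteins refold them or pull aggregates apart. Heat is also known to slow translation and to disturb splicing. A germinating seed meets this stress while it is breaking down its reserves and building its first ribosomes, organelles and cell walls.

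The deposited counts summed to between 8213510 and 10243960 reads in the WT normal libraries and between 8321216 and 10483144 in the WT heat libraries. Genes listed with 0 reads numbered 3165 to 3323 in WT normal and 2630 to 2771 in WT heat. The 100 most abundant genes took 27.5 to 28.3% of reads in WT normal and 33.8 to 36.4% in WT heat. Plastid-encoded genes gave 10.4 to 11% of the reads without heat and 4.47 to 5.05% with it. The mutated gene served as a check of the labels. CYP18-1 (AT1G01940) was read at 21.5, 23.2 and 21.3 CPM (reads scaled to a common library size, TMM-corrected) in WT normal and at 25.3, 25.2 and 26.2 CPM in WT heat, against means of 1.93 and 3.36 CPM in unheated and heated mutant seeds. Its WT heat change of 0.22 ± 0.12 (log2, SE) did not pass the test (adjusted p = 0.125).

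Heat altered the level of about as many genes upward as downward, but the largest changes were rises. Of 17296 genes tested, 8674 (50.2%) were called by edgeR (quasi-likelihood test, p adjusted by Benjamini-Hochberg, threshold 0.05), 4325 of them higher (25.0%) and 4349 lower (25.1%). At least 2-fold changes were called for 1630 genes (9.42%), 807 higher (4.67%) and 823 lower (4.76%). Among nuclear genes, 17088 were tested, 24.7% were called higher and 25.0% lower. Of these nuclear genes 180 rose at least 8-fold, 59 of them at least 16-fold, while a single nuclear gene fell at least 8-fold. The WT heat and WT normal libraries did not overlap for 9691 genes (56.0%). With plain library sizes in place of TMM factors the median of all genes moved to -0.21 on the log2 scale and the share of calls that were higher went from 49.9% to 27.5%, so every direction given here is relative to the typical gene.

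The largest rises were those of heat shock factors, small heat shock proteins and genes that were almost unread in unheated seeds. They were named by a rule: the 12 largest log2 rises among called nuclear genes whose groups did not overlap and whose higher group averaged 5 CPM or more. AT1G59860, an HSP20-like small heat shock protein, was read at 1.66, 1.39 and 1.31 CPM in WT normal and at 305, 236 and 402 CPM in WT heat. The heat shock factor gene HSFA2, which is itself switched on by heat and prolongs the response, stood at 1.95, 2.57 and 1.57 CPM without heat and at 328, 268 and 445 CPM with it. HSFA7A, a related factor, went from 1.46, 0.857 and 0.962 CPM to 104, 74.9 and 138 CPM. In each of these the WT heat libraries were far above every unheated library, with heat replicate 2 lowest and heat replicate 3 highest. The log2 changes were 7.75 ± 0.25 for AT1G59860, 7.43 ± 0.24 for HSFA2 and 6.58 ± 0.30 for HSFA7A (SE; adjusted p = 6.77e-16, 4.87e-16 and 1.73e-13, edgeR).

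**Figure D1:**
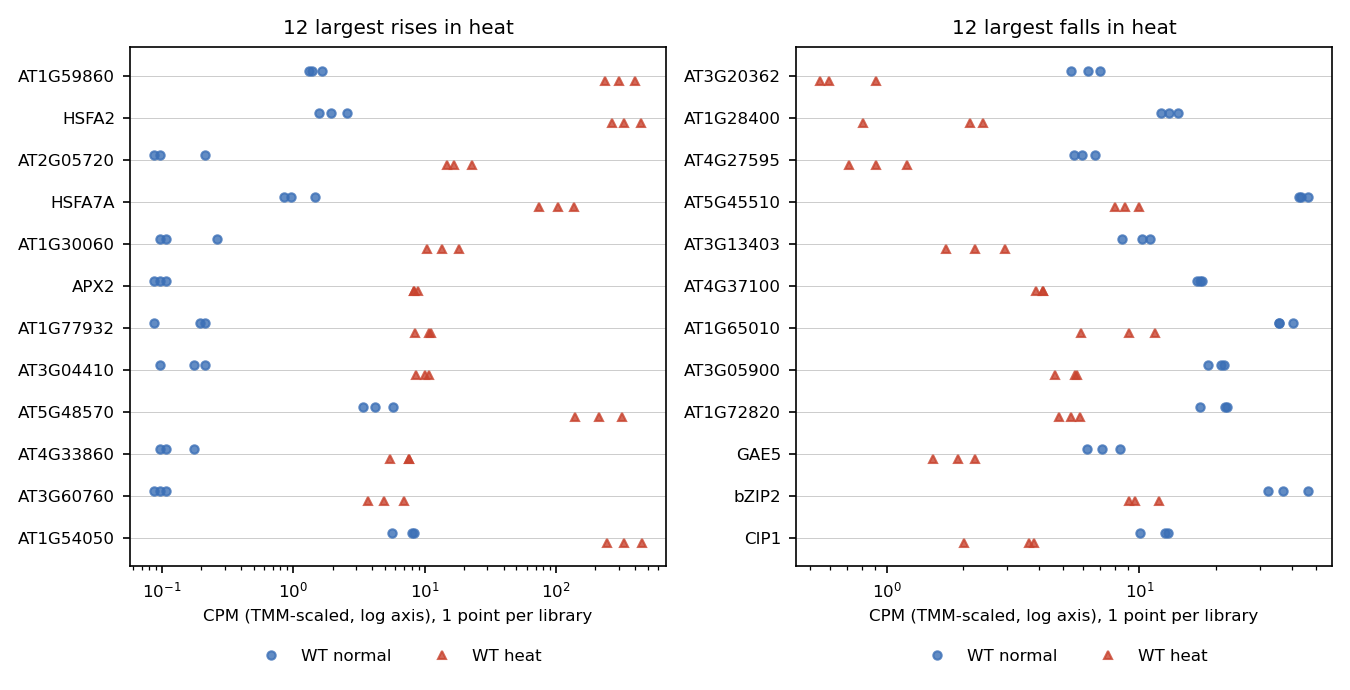
CPM in each WT library (log axis, 1 point per library; TMM-scaled) for the 12 nuclear genes with the largest log2 rises and the 12 with the largest falls under the naming rule. Circles are WT normal and triangles WT heat; AT1G59860 moves from about 1.45 to 314 CPM on average, while no fall in the right panel reaches 16-fold.

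A pair of chaperone-type genes completed the well-measured rises. AT5G48570, an FKBP-type peptidyl-prolyl isomerase, was read at 5.75, 4.18 and 3.41 CPM in WT normal and at 214, 140 and 321 CPM in WT heat. AT1G54050, another HSP20-like protein, went from 7.99, 8.36 and 5.68 CPM to 330, 244 and 450 CPM. The log2 changes were 5.67 ± 0.33 and 5.55 ± 0.24 (SE; adjusted p = 1.2e-11 and 5.65e-14, edgeR), and the naming rule required groups that did not overlap.

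The other 7 of the 12 had at most 2 reads over all 3 WT normal libraries, so their fitted folds are not given. APX2, an ascorbate peroxidase, which detoxifies hydrogen peroxide, had 230 reads in the 3 heated libraries and 0 in the unheated ones, so that it was at least 86.5-fold higher (set against 3 reads, the most that a count of 0 allows for the group). AT3G60760, a hypothetical protein, had 138 and 0 reads and was at least 51.9-fold higher. For AT2G05720, a WD40 repeat protein, 1 and 492 reads gave a ratio of 555 (exact 95% interval 99.2 to 21971, which like the others covers counting error only). AT1G30060, annotated as COP1-interacting protein-like, had 2 and 392 reads and a ratio of 221 (60.8 to 1833). Similar pairs of read numbers were found for AT1G77932, of the family with domain DUF3049 (2 and 276), for the NAC-domain gene AT3G04410 (2 and 268) and for AT4G33860, a glycosyl hydrolase of family 10 (1 and 186). Over the whole table, 29 genes had 0 reads in WT normal and at least 30 in WT heat, and 0 genes showed the opposite.

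Promoters of the genes that rose most held heat shock elements more often than promoters at large. The element consists of alternating GAA and TTC units; the letters searched in the window from 250 bases before to 50 bases after the annotated start were GAANNTTC or TTCNNGAA for 2 units, each of which reads the same on both strands. Of 17087 promoters of tested nuclear genes, 3241 (19.0%) held a match. The share was 42.4% (25 of 59) for genes at least 16-fold higher, 33.1% (40 of 121) for those 8-fold to 16-fold higher, 31.9% (45 of 141) for 4-fold to 8-fold and 26.4% (118 of 447) for 2-fold to 4-fold. It was 18.6% among genes higher by less than 2-fold, 18.7% among genes not called and 18.4% among genes lower by at least 2-fold, close to the share over all promoters. For 3 units, GAANNTTCNNGAA or its reverse complement TTCNNGAANNTTC, which contain a 2-unit match, the shares were 6.78% (4 of 59) and 6.61% (8 of 121) in the top classes, 0.597% (102 of 17087) over all promoters and 0.266% (2 of 752) in genes lower by at least 2-fold. These matches are letters in a window, not measured binding.

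**Figure D2:**
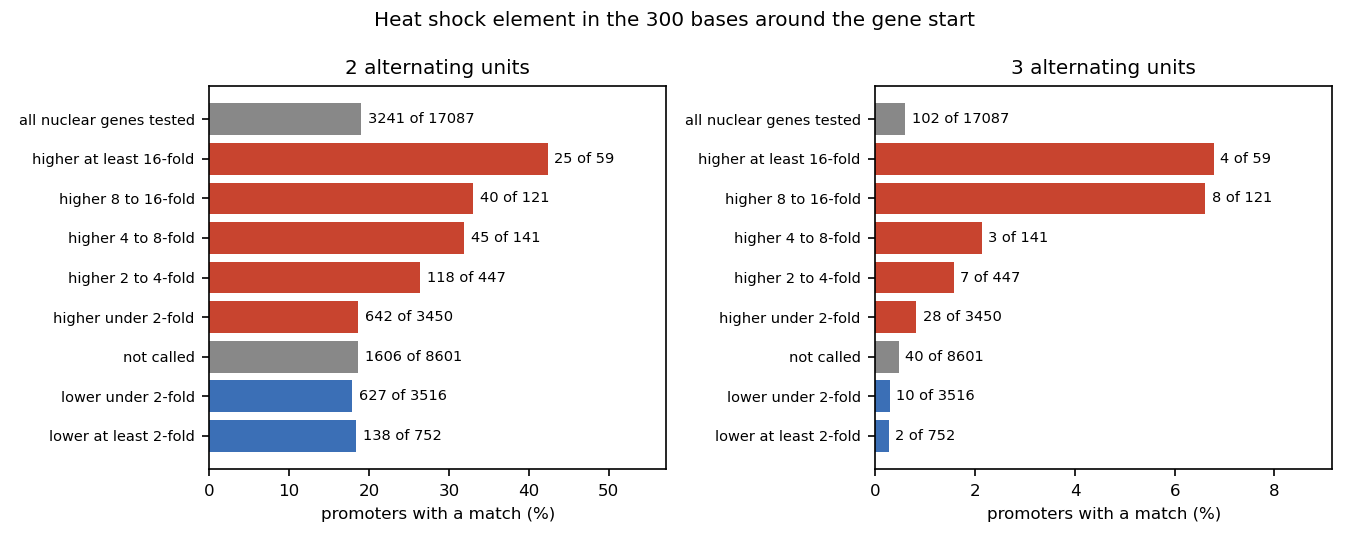
Percentage of promoters (250 bases before to 50 bases after the start) that hold a heat shock element of 2 units (left) or 3 units (right), by class of WT heat change, with the numbers printed beside each bar. The bar for genes at least 16-fold higher reaches 42.4% on the left, against 19.0% over all promoters, and the bars for lower genes lie at or below the bar for all.

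In 8 of the 12 genes that rose at least 8-fold and held a 3-unit match, the element lay wholly before the annotated start. These elements are shown, with 20 bases on either side where the window allows, because they are the letters the shares above count; HSFA7A has 2, and in AT1G71000 overlapping matches form 1 longer run. Capitals mark the elements, each sequence is written 5′ to 3′ on the gene's own strand, and sequences and positions are from the RefSeq annotation of TAIR10.1. Other than HSFA2 and HSFA7A, the genes were chosen by their promoter after their values were seen.
HSFA2, chr2:11135516-11135568, plus strand: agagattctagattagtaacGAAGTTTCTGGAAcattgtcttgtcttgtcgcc
HSFA7A, chr3:19264929-19265031, plus strand: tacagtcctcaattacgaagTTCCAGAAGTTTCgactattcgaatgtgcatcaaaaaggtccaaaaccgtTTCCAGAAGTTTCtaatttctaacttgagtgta
AT-HSFA7B, chr3:23399059-23399111, plus strand: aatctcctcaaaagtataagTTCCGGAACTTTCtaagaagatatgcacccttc
DREB2A, chr5:1602021-1602073, plus strand: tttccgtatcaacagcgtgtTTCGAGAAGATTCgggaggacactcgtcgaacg
AT1G53540, chr1:19980226-19980278, plus strand: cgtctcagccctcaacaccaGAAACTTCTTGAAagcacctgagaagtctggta
AT1G71000, chr1:26770271-26770328, minus strand: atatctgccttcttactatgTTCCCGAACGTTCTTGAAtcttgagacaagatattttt
GolS1, chr2:19370546-19370598, minus strand: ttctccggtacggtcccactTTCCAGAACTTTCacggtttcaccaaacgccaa
DIP2, chr5:763481-763518, minus strand: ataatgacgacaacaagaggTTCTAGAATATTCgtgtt

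The element of HSFA2 began 88 bases before the start, those of HSFA7A spanned 192 to 130 bases before it, and that of DIP2 began 18 bases before it. The genes encode regulators (HSFA2, HSFA7A, AT-HSFA7B and DREB2A), a small heat shock protein (AT1G53540), a J-domain co-chaperone (AT1G71000) and galactinol synthase (GolS1), which opens the raffinose pathway. Their log2 changes ran from 3.21 for AT-HSFA7B to 7.43 for HSFA2. Among the 12 largest rises named above, 6 held a 2-unit match and 2 a 3-unit match. AT2G05720, AT1G30060, AT1G77932, AT5G48570, AT3G60760 and AT1G54050 held none in this window, which says nothing about elements elsewhere.

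The largest falls among nuclear genes were smaller than the largest rises. AT5G45510, a leucine-rich repeat protein, fell from 42.7, 43.7 and 46.3 CPM to 8.75, 9.93 and 7.98 CPM, a log2 change of -2.32 ± 0.11 (SE; adjusted p = 4.53e-13, edgeR). AT1G65010, of the WEB family, whose founding member acts in chloroplast movement in leaves, went from 35.6, 40.4 and 35.7 CPM to 11.5, 9.11 and 5.86 CPM (-2.08 ± 0.15). AT4G27595, a second WEB-family gene, fell by 2.65 on the log2 scale from a lower level. CIP1, which binds the light-signalling repressor COP1, went from 10.03, 12.97 and 12.6 CPM to 3.83, 3.67 and 2.02 CPM (-1.91 ± 0.20). By the naming rule, no heated library of these 4 genes reached the lowest unheated one.

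The other large falls were of genes with varied annotations. The transcription factor gene bZIP2 fell from 36.9, 32.1 and 46.3 CPM to 9.62, 11.9 and 9.09 CPM, to 26.6% of its unheated mean (-1.92 ± 0.14, adjusted p = 4.25e-10, edgeR). GAE5, an epimerase that makes a pectin precursor, fell by 1.93, the mitochondrial carrier AT1G72820 by 1.95 and the neurofilament-like protein AT3G05900 by 1.95. AT4G37100, a pyridoxal phosphate-dependent transferase, went from 17.3, 17.7 and 16.97 CPM to 4.16, 3.903 and 4.14 CPM. The GATA zinc finger gene AT1G28400 fell by 2.89 and the defensin-like gene AT3G13403 by 2.1. AT3G20362, a hypothetical gene with a spliced length of 144 bases and the single one past 8-fold, fell by 3.15. The naming rule itself required the heated libraries of all 12 genes to lie below the unheated ones. Of the 12 promoters, 2 held a 2-unit heat shock element.

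By absolute level, 5 of the 6 largest gains were in genes whose reads have more than 1 possible source. RR3 (AT2G41310), a type-A cytokinin response regulator, went from 30240, 27090 and 30260 CPM to 66040, 75840 and 91420 CPM (1.41 ± 0.10, SE; adjusted p = 3.74e-10, edgeR), and its locus overlaps an antisense RNA gene, AT2G09250. AT2G31141, a hypothetical protein gene overlapping a neighbour at each end, went from 3182, 3201 and 2931 CPM to 7009, 7338 and 9230 CPM (1.34 ± 0.10). No step that keeps the strand is described, so reads of overlapping genes cannot be told apart. AT2G07698, AT2G07671 and AT2G07727 rose by 0.89, 1.02 and 0.79, and they lie in the copy of the mitochondrial genome on chromosome 2, where reads of the nuclear and the mitochondrial gene cannot be told apart either. The remaining gain was HSP70 (AT3G12580), with 277, 200 and 201 CPM without heat and 1705, 1624 and 2380 CPM with it (3.08 ± 0.17, adjusted p = 3.37e-12).

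The 6 largest losses of absolute level were of abundant genes and were small as folds. AVP1, the proton-pumping pyrophosphatase of the vacuole, went from 1802, 1981 and 1923 CPM to 1147, 1198 and 1315 CPM (-0.64 ± 0.07, SE; adjusted p = 3.42e-07, edgeR). PCK1, which commits oil reserves to sugar synthesis, fell from 3280, 3333 and 3500 CPM to 2723, 2667 and 2689 CPM (-0.32 ± 0.06, adjusted p = 6.53e-05). ACO3, an aconitase, fell by 0.53, the cysteine proteinase CP1 (AT4G36880) by 0.33 and DGR2, a protein of unknown function, by 0.45. For these 5 genes the heated libraries lay below all unheated ones. For AT2G01008, annotated as a maternal effect embryo arrest protein, they overlapped (2268, 2529 and 2438 CPM against 1866, 1865 and 2434), and its change of -0.23 ± 0.10 (adjusted p = 0.0495) missed the threshold in 8 of the 12 fits that left out a library.

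The direction of change went with transcript length. Over nuclear genes the median log2 change was 0.50 for the 223 genes with a spliced length of up to 500 bases, 0.38 for those up to 1000, 0.18 up to 1500, -0.02 up to 2000, -0.21 up to 3000, -0.34 up to 4000 and -0.36 for the 654 longer ones. Of the shortest class 49.3% were called higher and 4.93% lower; of the longest 6.42% were called higher and 59.0% lower. Each heated library showed it: the median in the shortest class was 0.40, 0.42 and 0.53 in the 3 libraries, and in the longest -0.41, -0.38 and -0.31. Under plain library sizes the medians ran from 0.30 to -0.56, so the order by length did not change while the classes over 1000 bases were below 0.

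Spearman's rho across 17087 genes, which share libraries and are not independent, was -0.43 between length and change. It was -0.43, -0.42 and -0.37 in the 3 heated libraries against the WT normal mean, and between -0.05 and 0.05 in the 3 unheated libraries against the same mean. The number of exons gave -0.07 and the GC content 0.01. Within each of 5 classes of genes by mean level, genes of up to 1000 bases had medians of 0.31 to 0.55 and genes over 3000 bases medians of -0.28 to -0.37. In the mutant the correlation was -0.29. The files hold no measure of RNA integrity or of coverage along transcripts, so a part of these in the length pattern was not tested, and each gene group below is set beside nuclear genes in the length class of its median member.

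**Figure D3:**
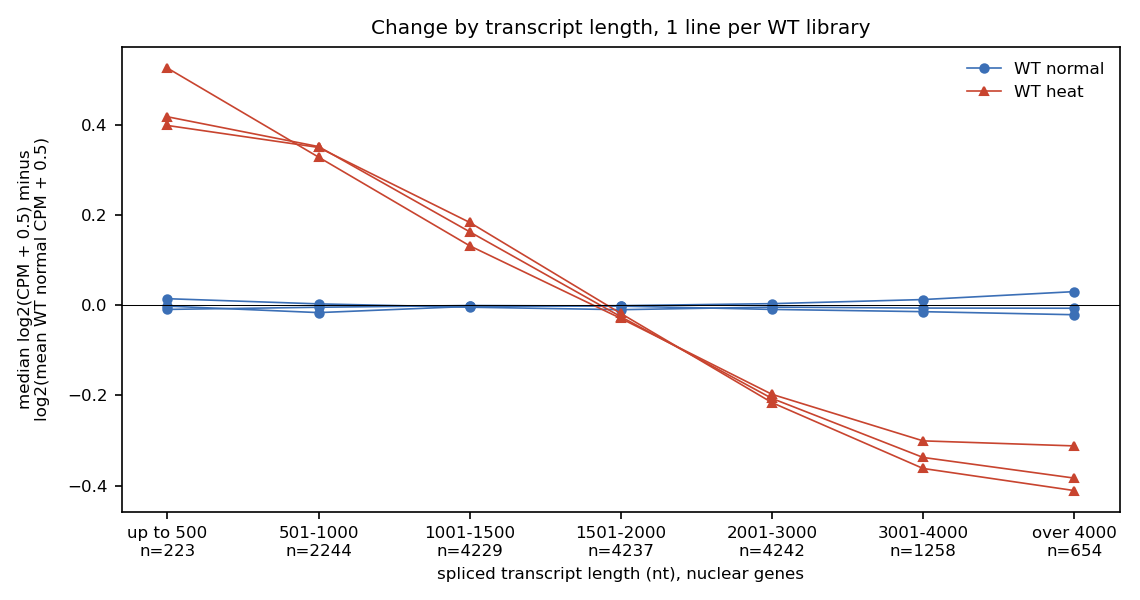
Median over nuclear genes of log2(CPM + 0.5) in 1 library minus log2(mean WT normal CPM + 0.5), by class of spliced length (nt), with 1 line per WT library. The 3 heated libraries fall from 0.40 to 0.53 in the shortest class to between -0.31 and -0.41 in the longest, and the 3 unheated libraries stay near 0.

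Chaperone genes stood out from genes of like length. Of 29 tested small heat shock and HSP20-like proteins, 24 rose and 2 fell (median log2 change 2.74; 0.18 for genes of like length), and of 22 HSP70, HSP90 and HSP100 genes 15 rose and 5 fell (median 1.24; -0.21). The disaggregase HSP101 went from 83.4, 58.3 and 50.7 CPM to 1387, 1049 and 2129 CPM (4.57 ± 0.26, SE; adjusted p = 8.82e-12, edgeR). HSP90.1 was read at 103, 77.8 and 71.6 CPM without heat and 1022, 824 and 1433 CPM with it (3.70 ± 0.20). HSP23.6-MITO and MTHSC70-2, both mitochondrial, rose by 4.47 and 1.94. In each of these heat replicate 2 was the lowest and heat replicate 3 the highest of the heated libraries, as for the heat shock factors. The 2 members that fell, SLT1 and AT5G02480 (-1.01 and -1.2), and those of the larger chaperones, among them the organellar HSP90 genes CR88 (-0.30) and Hsp89.1 (-0.29) and the plastid HSP70 gene cpHsc70-1 (-0.44), are named here after their values were seen, as are the minority members of the lists below. The summed level of the small heat shock list was 419 to 502 CPM in WT normal and 2106 to 3546 CPM in WT heat.

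J-domain proteins and chaperonins did not rise as groups. Of 110 J-domain proteins, co-chaperones that hand clients to HSP70, 22 rose and 35 fell (19 and 54 under plain library sizes; median -0.08; -0.02 for genes of like length). AT2G20560 rose from 16.6, 12.7 and 10.8 CPM to 214, 166 and 278 CPM (4.05 ± 0.20, SE; adjusted p = 4.73e-13, edgeR), and ATERDJ3A, of the endoplasmic reticulum, rose by 4.05 ± 0.32. AT5G06110, with J and MYB-like domains, fell by 1.24 and AT2G05230 by 1.09. Of 19 chaperonins, the ring chaperones, 6 rose and 5 fell (3 and 9 under plain library sizes). The list median was -0.01, above the -0.21 of genes of like length, and it was -0.21 under plain library sizes. CPN10 of mitochondria went up by 0.92 ± 0.07 and the plastid co-chaperonins CPN20 and CHL-CPN10 by 0.41 and 0.44. The plastid ring subunit CPN60B fell by 0.47 ± 0.07. The other 4 that fell were subunits of the cytosolic CCT ring, AT3G11830, AT3G18190, AT5G16070 and AT5G20890 (-0.18 to -0.25).

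Protein breakdown genes moved by small amounts. Of 45 subunits of the 26S proteasome, which degrades ubiquitin-tagged proteins, 28 rose and 5 fell (median 0.34; -0.02 for genes of like length), and the summed level was 4573 to 4765 CPM in WT normal and 5512 to 5652 CPM in WT heat. With plain library sizes the counts were 18 and 12. PBG1, of the 20S core, went from 128, 148 and 140 CPM to 247, 262 and 255 CPM (0.88 ± 0.07, SE; adjusted p = 2.24e-09, edgeR), and PBD1, PAC1 and PBD2 of the same core rose by 0.65 to 0.66. Of 6 polyubiquitin genes 3 rose and 0 fell (median 0.69, and 0.18 for genes of like length). UBQ10 went from 1101, 1013 and 1057 CPM to 1695, 1886 and 1918 CPM (0.79 ± 0.07), UBQ14 rose by 0.86 and UBQ11 by 0.68, while UBQ4 at 0.27 ± 0.13 did not pass (adjusted p = 0.0817). Of 26 autophagy genes 9 (34.6%) rose and 4 (15.4%) fell (6 and 7 under plain library sizes). These shares were near those of genes of like length, of which 33.6% rose and 12.2% fell. The list median was 0.28, and 0.18 for genes of like length. ATG8H went from 4.87, 4.61 and 3.59 CPM to 8.97, 13.7 and 13.03 CPM (1.46 ± 0.21), and the autophagy-like gene AT4G30790 fell by 0.80.

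**Figure D4:**
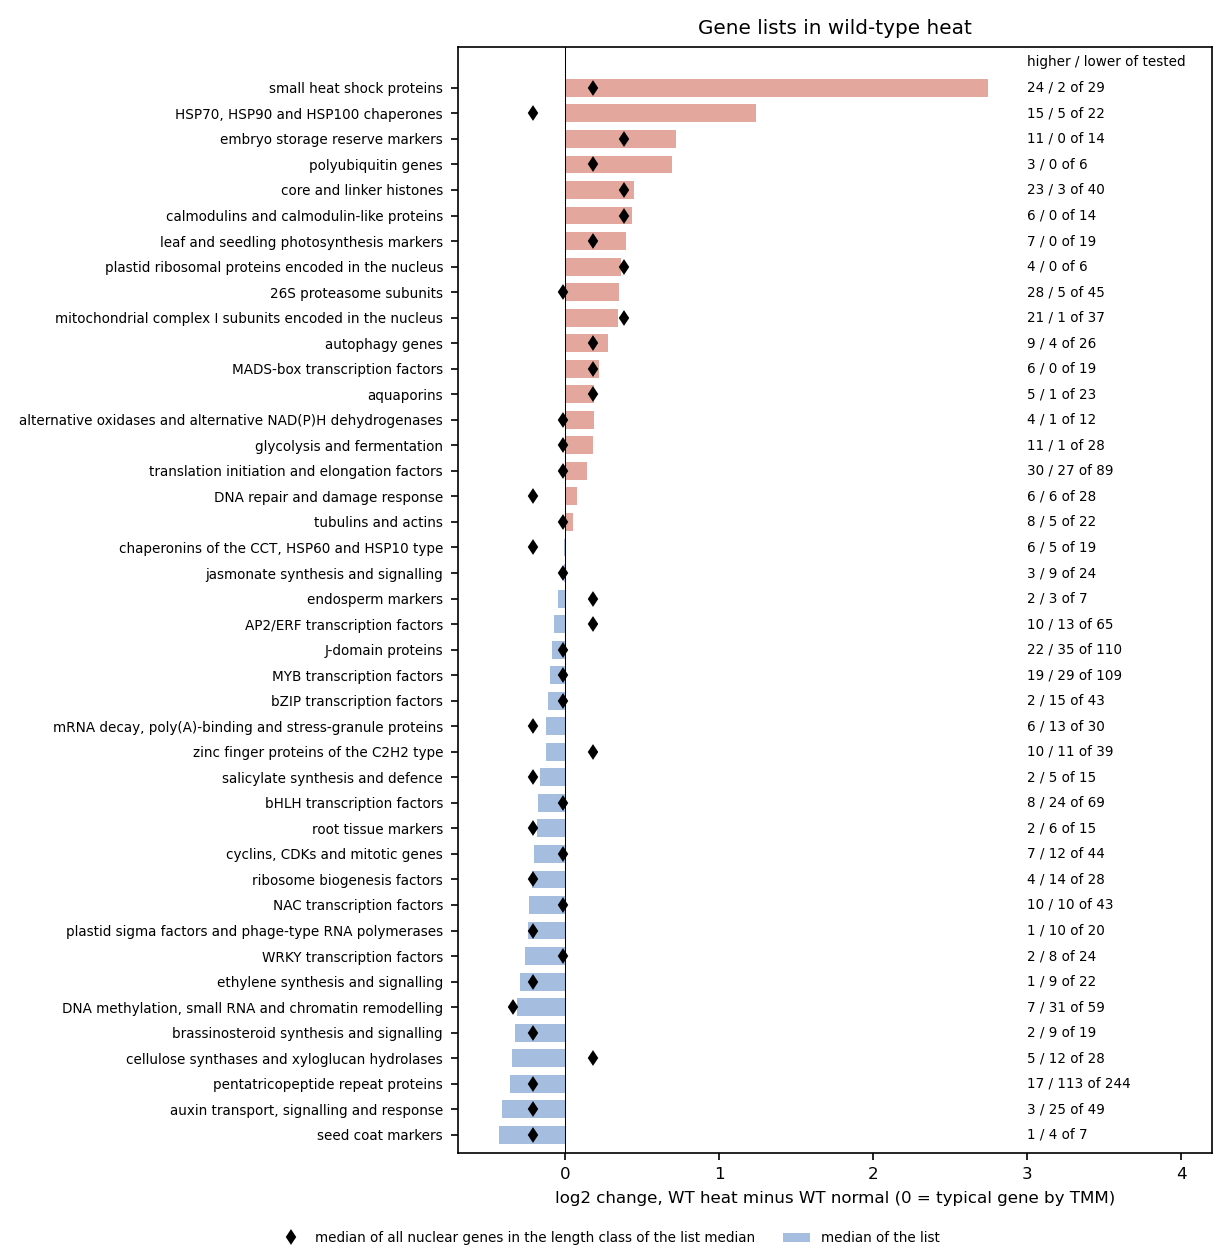
Median log2 change in WT heat for each of the 42 gene lists (bars; 0 is the typical gene under TMM scaling) with the median of all nuclear genes in the length class of the list's median member (diamonds) and the numbers called higher and lower of those tested. The 2 upper bars, small heat shock proteins (2.74) and HSP70, HSP90 and HSP100 chaperones (1.24), reach far beyond their diamonds, and except for polyubiquitin genes and cellulose synthases the other lists lie within 0.5 of theirs.

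Initiation and elongation factors rose and fell in similar numbers, as did genes of like length. EIF4G, the scaffold of the cap-binding initiation complex, went from 190, 172 and 182 CPM to 52.9, 63.0 and 66.1 CPM, 33.5% of its unheated mean (-1.58 ± 0.08, SE; adjusted p = 2.98e-12, edgeR). AT1G76810, of the eIF2 family, fell by 1.03 ± 0.08. The elongation factor 1B gene AT5G12110 rose from 8.67, 7.72 and 8.13 CPM to 63.5, 48.2 and 93.2 CPM (3.07 ± 0.22), and AT5G19510, of the same family, from 748, 747 and 800 CPM to 1500, 1453 and 1547 CPM (0.97 ± 0.06). Of 89 initiation and elongation factors 30 (33.7%) rose and 27 (30.3%) fell (17 and 31 under plain library sizes). Of genes of like length 21.3% rose and 22.5% fell. The list median was 0.14, and -0.02 for genes of like length. Under plain library sizes the list median was -0.06. Of 28 ribosome biogenesis factors 4 rose and 14 fell (0 and 21 under plain library sizes; median -0.22; -0.21 for genes of like length). NSN1, a nucleolar GTPase, fell by 0.93, the exosome helicase MTR4 by 0.85, NRPA2 of RNA polymerase I by 0.69 and the exoribonuclease XRN2 by 0.72.

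RNA decay factors fell more often than they rose, as did genes of like length. Of 30 genes for mRNA decay, poly(A)-binding and stress-granule proteins 6 rose and 13 (43.3%) fell (3 and 18 under plain library sizes). Of genes of like length 12.4% rose and 38.3% fell. The list median of -0.12 lay above the -0.21 of genes of like length. DCP5, a decapping cofactor found in processing bodies, went from 58.4, 60.2 and 62.6 CPM to 24.8, 23.5 and 27.8 CPM (-1.25 ± 0.11, SE; adjusted p = 5.30e-09, edgeR). Tudor2, a stress-granule nuclease, fell by 0.92, whereas VIP3, a subunit of the PAF1 and Ski complexes, rose by 0.92.

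The medians of histones and of chromatin remodelling genes lay near those of genes of like length. Of 40 core and linker histones 23 rose and 3 fell (median 0.45; 0.38 for genes of like length), and their summed level went from between 1820 and 1855 CPM to between 2485 and 2548 CPM. AT5G10980, a histone H3 gene, was read at 140, 132 and 143 CPM without heat and 248, 254 and 259 CPM with it (0.87 ± 0.07, SE; adjusted p = 4.37e-09, edgeR). HTB4 and HTB11, of histone H2B, rose by 0.56 and 0.63, and HTA7, of H2A, by 0.84. Of 59 genes for DNA methylation, small RNA and chromatin remodelling 7 rose and 31 fell (3 and 39 under plain library sizes; median -0.32; -0.34 for genes of like length). BRM, a SWI/SNF remodelling ATPase, went from 148, 141 and 155 CPM to 64.3, 73.0 and 77.0 CPM (-1.05 ± 0.09), its relative SYD fell by 0.64, the histone demethylase REF6 by 0.82 and the DNA demethylase DME by 0.79. Of 28 DNA repair genes 6 (21.4%) rose and 6 (21.4%) fell (4 and 12 under plain library sizes). Of genes of like length 12.4% rose and 38.3% fell. The list median was 0.07, above the -0.21 of genes of like length, and it was -0.13 under plain library sizes. TSO2 and RNR2A, ribonucleotide reductase subunits that supply DNA precursors, rose by 0.67 and 0.44, PHR2 by 0.43, and the end-joining gene KU80 fell by 0.60.

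Among cyclins, cyclin-dependent kinases and mitotic genes, 7 of 44 rose and 12 (27.3%) fell, where 25.1% of all genes and 22.5% of genes of like length fell; under plain library sizes 2 rose and 17 fell (median -0.20; -0.02 for genes of like length). CDC2, the A-type kinase needed to enter division, went from 45.5, 43.5 and 48.3 CPM to 23.8, 21.9 and 22.3 CPM (-1.01 ± 0.08, SE; adjusted p = 3.15e-09, edgeR). Its inhibitor KRP2 fell by 1.31, RBR1 of the retinoblastoma family by 0.53 and CYCA3;2 by 0.69. Of 28 cellulose synthases and xyloglucan hydrolases 5 rose and 12 fell (2 and 17 under plain library sizes), with a median of -0.35 where genes of like length had 0.18. The cellulose synthases CEV1, CESA6 and CESA2 fell by 0.62, 0.55 and 0.82, and EXGT-A3, a xyloglucan transferase, went from 23.2, 20.9 and 22.7 CPM to 9.62, 11.4 and 10.2 CPM. The 5 that rose were all xyloglucan hydrolases, from XTH5 (0.24) to XTH25 (0.98). Of 22 tubulins and actins 8 rose and 5 fell (4 and 8 under plain library sizes). Among them TUA4 stood at 0.63, TUA6 at 0.43, ACT2 at 0.46 and ACT8 at 0.44. The list median was 0.05 (-0.16 under plain library sizes), and -0.02 for genes of like length.

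Among pentatricopeptide repeat genes and plastid transcription genes more fell than rose, as among genes of like length. Of 244 pentatricopeptide repeat proteins, which edit, splice and stabilise RNA of plastids and mitochondria, 17 rose and 113 (46.3%) fell, where 38.3% of genes of like length fell (median -0.36; -0.21 for genes of like length). AT1G09900 went from 49.98, 51.8 and 47.3 CPM to 14.4, 15.8 and 17.4 CPM (-1.64 ± 0.09, SE; adjusted p = 7.00e-12, edgeR). AT1G71210 fell by 1.69, AT3G46610 by 1.91 and AT1G18900 by 0.96. Of 20 plastid transcription genes, sigma factors and proteins bound to the plastid RNA polymerase, 1 rose and 10 fell (median -0.24; -0.21 for genes of like length). FLN2 went from 93.5, 94.6 and 95.8 CPM to 41.3, 41.0 and 36.3 CPM (-1.26 ± 0.08), and PTAC12, PTAC2 and MURE fell by 1.23, 1.31 and 0.97. Plastid-encoded genes gave a smaller share of the reads from polyadenylated RNA in the same heated libraries. A link of that share to these falls was not tested. Of 6 plastid ribosomal proteins encoded in the nucleus 4 rose and 0 fell (median 0.36, and 0.38 for genes of like length), among them PSRP6 at 0.97 and PSRP5 at 0.68.

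Of 37 subunits of mitochondrial complex I, 21 rose and 1 fell (14 and 5 under plain library sizes), with a median of 0.34, a little below the 0.38 of genes of like length. AT4G16450 went from 86.6, 89.9 and 89.7 CPM to 175, 174 and 182 CPM (1.00 ± 0.07, SE; adjusted p = 1.75e-10, edgeR), AT3G08610 rose by 0.66 and AT5G47570 by 0.75. AT2G07689, at 0.86, lies in the mitochondrial copy on chromosome 2. The alternative oxidase AOX1A, which bypasses part of the respiratory chain, went from 8.67, 6.64 and 6.73 CPM to 12.1, 15.97 and 17.98 CPM (1.06 ± 0.15). AOX2 rose by 0.88, NDA1 by 0.58 and NDC1 by 0.29. Of the 12 genes of this list 4 rose and 1 fell (2 and 3 under plain library sizes). The list median was 0.18 (-0.03 under plain library sizes), and -0.02 for genes of like length. Of 28 glycolysis and fermentation genes 11 rose and 1 fell (6 and 6 under plain library sizes). Here too the list median was 0.18 (-0.03 under plain library sizes), and -0.02 for genes of like length. PGK was read at 475, 486 and 438 CPM without heat and 838, 766 and 843 CPM with it (0.81 ± 0.07), TPI rose by 0.56, the enolase LOS2 by 0.42 and PFK3, a phosphofructokinase, by 1.4. Its relative PFK1 was the gene that fell, by 1.14.

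Of 23 aquaporins, channels for water and small solutes, 5 rose and 1 fell (3 and 3 under plain library sizes). Their median was 0.18, as was that of genes of like length, and it was -0.02 under plain library sizes. TIP3;1, the aquaporin of the membrane around storage vacuoles, was read at 66.9, 49.9 and 58.0 CPM without heat and at 71.8, 132 and 134 CPM with it (0.95 ± 0.17, SE; adjusted p = 8.70e-05, edgeR), the first heated library being close to the unheated ones. BETA-TIP, of the same membrane, rose by 0.66 with groups that overlapped, PIP3 rose by 0.43 and NLM1 fell by 0.47. Of 14 calmodulins and calmodulin-like proteins, which sense calcium, 6 (42.9%) rose and 0 fell, where 48.98% of genes of like length rose (6 and 1 under plain library sizes; median 0.43, and 0.38 for genes of like length), with CAM6 at 0.84 ± 0.07, CAM3 at 0.79, CAM7 at 0.65 and CML43 at 0.52.

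In all 5 hormone lists more genes fell than rose, and the named falls were mostly receptors and transcription factors. For all but the jasmonate list the genes of like length are those of 2000 to 3000 bases, of which 12.4% rose and 38.3% fell. Near or below that share, 40.9% of ethylene and 33.3% of salicylate genes fell, against 47.4% of brassinosteroid and 51.0% of auxin genes. Of jasmonate genes 37.5% fell, where 22.5% of genes of like length did. In ethylene signalling, 1 of 22 genes rose and 9 fell (median -0.29; -0.21 for genes of like length). The transcription factor gene EIN3 went from 112, 100.3 and 119 CPM to 46.9, 50.7 and 51.1 CPM (-1.16 ± 0.08, SE; adjusted p = 1.42e-10, edgeR), its relative EIL1 fell by 1.15 and the receptor EIN4 by 1.3. EIN2, the membrane protein upstream of EIN3, fell by 1.14 ± 0.08, but its transcript with the most reads, an assembled one, gave 0.16 (adjusted p = 0.108). The gene that rose was ACS2, of ethylene synthesis (1.09, from 0.646 to 1.40 CPM). In brassinosteroid signalling, 2 of 19 rose and 9 fell (median -0.33; -0.21). The receptor BRI1 went from 43.1, 43.0 and 44.7 CPM to 11.3, 11.9 and 12.9 CPM, 27.6% of its unheated mean (-1.85 ± 0.11, adjusted p = 1.12e-11); the related receptor BRL3 fell by 1.48 and the kinase BIN2 by 0.69, while the synthesis gene CPD rose by 0.60.

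In the auxin list 3 of 49 genes rose and 25 (51.0%) fell (median -0.41; -0.21 for genes of like length). The auxin receptors AFB5 and AFB2 fell by 1.25 ± 0.09 and 0.85 ± 0.08, the response factor MP by 0.98 and the influx carrier AUX1 by 0.64. AFB5 was read at 48.5, 52.8 and 50.2 CPM without heat and at 20.7, 22.5 and 20.4 CPM with it (adjusted p = 8.20e-10, edgeR). In the jasmonate list 3 of 24 rose and 9 fell (1 and 10 under plain library sizes; median -0.01; -0.02). The jasmonate receptor COI1 fell by 1.17, the transcription factor MYC4 by 1.11, JAR1, which makes the active hormone conjugate, by 0.75 and CYP94C1, which oxidises it, by 1.21. Of 15 salicylate and defence genes 2 rose and 5 fell (median -0.16, and -0.21 for genes of like length). WRKY26 and WRKY25 rose by 2.03 ± 0.39 and 1.12 ± 0.24. The rise of WRKY26 rested on few reads, 16 over the unheated WT libraries and 67 over the heated ones. WRKY39 and the receptor NPR4 each fell by 0.94. The related receptors NPR1 and NPR3 fell by 0.61 and 0.56.

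In 6 of 8 transcription factor families more members fell than rose, where 25.0% of all nuclear genes fell. Of bZIP, bHLH and WRKY genes 34.9%, 34.8% and 33.3% fell. The shares of MYB-type (26.6%) and C2H2 genes (28.2%) were near that of all nuclear genes, and the AP2/ERF-type share was below it. Among genes of like length fewer fell: 22.5% for the bZIP, bHLH, WRKY and MYB families and 12.2% for AP2/ERF and C2H2. Of 43 bZIP genes 2 rose and 15 fell (median -0.11), of 69 bHLH genes 8 and 24 (-0.18), of 24 WRKY genes 2 and 8 (-0.26), of 109 MYB-type genes 19 and 29 (-0.10), of 65 AP2/ERF-type genes 10 and 13 (-0.07), of 39 C2H2 zinc finger genes 10 and 11 (-0.12), of 43 NAC genes 10 and 10 (-0.24) and of 19 MADS-box genes 6 and 0 (0.22). Under plain library sizes the counts were 5 and 34 for bHLH, 11 and 39 for MYB-type, 5 and 23 for AP2/ERF-type, 8 and 17 for C2H2, 8 and 21 for NAC and 2 and 2 for MADS-box genes, whose median was then 0.01. The median of genes of like length was -0.02 for the bZIP, bHLH, WRKY, MYB and NAC families and 0.18 for the other 3. ATAF1, a stress-induced NAC factor, went from 95.4, 79.2 and 84.9 CPM to 236, 220 and 358 CPM (1.65 ± 0.17, SE; adjusted p = 7.01e-08, edgeR), and NAC069, a membrane-bound one, rose by 1.90. The zinc finger gene AT2G41835, of the AN1-like type, rose from 2.63, 3.75 and 3.41 CPM to 15.1, 18.6 and 16.7 CPM (2.36 ± 0.19), while AT2G28200 fell by 1.76.

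The clock gene LHY went from 28.4, 28.2 and 26.8 CPM to 11.3, 9.58 and 9.90 CPM (-1.44 ± 0.11, SE; adjusted p = 1.2e-09, edgeR). ICE1, a bHLH regulator of cold genes, fell by 0.95, BZIP53, a regulator of seed maturation genes, by 0.92 and CRF10, of the AP2/ERF type, by 0.76. The other 3 AP2/ERF-type genes under the naming rule rose from few reads: AT2G40350 had 5 in WT normal and 56 in WT heat, AT3G19184 had 6 and 44, and AT5G58280 had 1 and 29. Among MADS-box genes AT3G12510, AGL16, AGL67 and AGL102 rose by 0.90, 0.77, 0.53 and 0.68, and the libraries of AGL67 overlapped.

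Marker lists were read for the tissues a whole seed can hold. Storage reserve markers of the embryo were well detected, at a summed 2167 to 3396 CPM in WT normal and 2709 to 4865 CPM in WT heat, so that the groups overlapped. Of 14 tested, 11 rose and 0 fell (median 0.72; 0.38 for genes of like length). OLEO2, an oil-body oleosin, was read at 140, 99.4 and 106 CPM without heat and at 142, 235 and 237 CPM with it (0.83 ± 0.15, SE; adjusted p = 0.000138, edgeR), and OLEO4 at 51.6, 40.4 and 43.8 CPM against 62.5, 108 and 120 CPM (1.1 ± 0.18). In both the first heated library stood near the unheated ones and apart from the other 2. GEA6, of late embryogenesis, rose by 1.22 and OLEO3 by 0.69.

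Markers of other tissues went different ways. Their median log2 changes, with those of genes of like length in brackets, were -0.43 (-0.21) for seed coat and -0.05 (0.18) for endosperm markers. They were 0.39 (0.18) for photosynthesis and -0.18 (-0.21) for root markers. Of 7 seed coat markers 1 rose and 4 fell, and their sum was 95.2 to 117 CPM in WT normal and 65.2 to 67.7 CPM in WT heat. MUM4 and MUM2, which make and modify seed mucilage, fell by 1.18 and 1.11, and TT4, which starts flavonoid synthesis, by 0.52, while AHA10 rose by 1.29 from 1.24 CPM. Of 7 endosperm markers 2 rose and 3 fell (sum 721 to 800 CPM and 673 to 716 CPM), with the mannanase MAN7 at -0.47, EXPA2 at -0.40, GA3OX2 at 0.89 and PER1 at 0.67. Of 19 photosynthesis markers 7 rose and 0 fell (3 and 1 under plain library sizes; sum 1627 to 1828 CPM and 1993 to 2624 CPM), with DRT112, a plastocyanin, at 0.84, RBCS3B at 0.64, RBCS2B at 0.63 and RBCS1B at 0.45; the RBCS genes are near-identical copies, so the split of reads among them is uncertain. Of 15 root markers 2 rose and 6 fell (1 and 7 under plain library sizes; sum 203 to 211 CPM and 183 to 188 CPM), with SCR at -1.3, EIR1 at -0.62, PLT1 at -0.69 and SUC2 at 0.40. In whole seeds fewer cells of a type and less RNA per cell cannot be told apart, and the part of tissue makeup in the other gene groups was not tested.

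Splicing changed mainly by introns being kept. The authors' deposited table of WT events called by heat against normal held 2488 retained introns in 1259 genes, of which 2308 (92.8%) were higher in heat and 180 lower. Each value divides the reads of an intron by the mean reads of the exons beside it, so it is relative to the level of the gene. Over the 2308 introns with more retention the median ratio went from 0.0782 to 0.284, and over the 180 with less from 0.0226 to 0.00970. The table lists called events with an unadjusted p-value, so no share of all introns follows from it. Of the 1115 genes with a more retained intron, 314 were called higher in level, 429 lower and 372 not called, whereas of 152 genes with a less retained one 122 were higher and 8 lower.

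Introns of chaperone genes in the authors' deposited table moved in 1 direction. In the 4 chaperone lists all 157 introns listed, in 44 genes, were higher in heat, with a median ratio of 0.0231 without heat and 0.205 with it and a median gain of 8.26-fold; in other genes 2151 of 2331 were higher and the median ratio of the larger to the smaller mean was 2.84. The lists differed in how many genes had a listed intron: 18 of 22 HSP70, HSP90 and HSP100 genes (90 introns), 9 of 21 chaperonins, 6 of 37 small heat shock proteins and 11 of 124 J-domain proteins. Over tested genes with at least 2 exons, 7.51% had an intron with more retention. The list totals are not of that kind, since they also count untested members and members with 1 exon, such as AT1G59860. Intron 1 of HSP90.1, 315 bases long, was read at ratios of 0.0576, 0.109 and 0.0444 in WT normal and 1.28, 1.22 and 1.198 in WT heat, 17.5-fold higher with p = 4.69e-06 in the authors' deposited table. Intron 3 of the same gene went from 0.00585, 0.0174 and 0.0126 to 0.257, 0.253 and 0.240. The heated libraries lay close together and far above the unheated ones for both.

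Intron 2 of the HSP70 gene AT3G09440 had the smallest p in the authors' deposited table (6.67e-07), with ratios of 0.000700, 0.000697 and 0.000366 without heat and 0.0157, 0.0159 and 0.0162 with it, so it stayed a rare product although it rose 27.1-fold. Intron 1 of AT1G54050, the small heat shock gene named above, went from 0.0168, 0.0367 and 0.0215 to 0.424, 0.405 and 0.398. Intron 7 of AT5G48570 went from 0.105, 0.0833 and 0.143 to 0.745, 0.693 and 0.750, and 10 of the 12 introns of that gene were listed. Intron 3 of LOS1, translation elongation factor 2, went from 0.139, 0.143 and 0.124 to 0.366, 0.379 and 0.359 while the level of the gene was not called (-0.05 log2, adjusted p = 0.539, edgeR). Intron 1 of AT5G35320 went from 0.0372, 0.05 and 0.0636 to 0.611, 0.585 and 0.583.

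**Figure D5:**
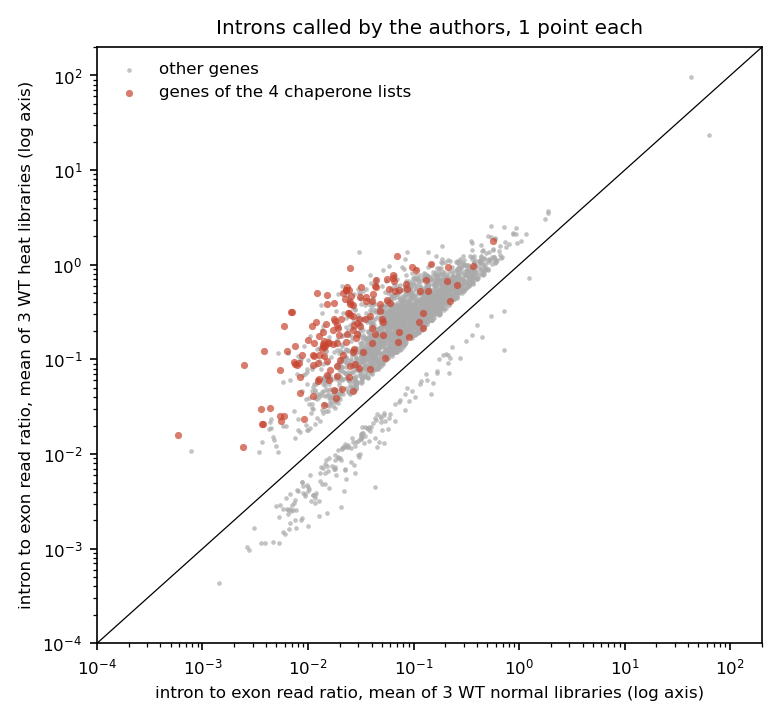
Intron to exon read ratio of each of the 2488 introns in the authors' deposited WT table, mean of 3 WT normal libraries against mean of 3 WT heat libraries (log axes); the line marks equal ratios. Genes of the 4 chaperone lists (157 introns) all lie above the line, and 180 introns of other genes lie below it.

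Introns were called as retained most often in genes that had risen most. The share, 7.51% over all 14834 tested genes with at least 2 exons, was 22.3% (29 of 130) among genes at least 8-fold higher, 18.7% (84 of 450) among those 2-fold to 8-fold higher, 6.63% among genes higher by less than 2-fold, 4.95% among genes not called, 12.8% among genes lower by less than 2-fold and 4.33% among genes lower by at least 2-fold. Reads set how readily an intron is called, and that part was not tested. Of the 1115 genes, 673 had 1 such intron, 330 had 2 to 4 and 112 had 5 or more. The 5 genes with the most, given here after their values were seen, were AT1G63770 (20 of 29 introns), ILA (17 of 59), the mitochondrial HSP90 gene Hsp89.1 (16 of 20), AT1G01320 (15 of 24) and the plastid HSP90 gene CR88 (15 of 18). All 5 fell in level, by 0.30, 0.56, 0.29, 0.69 and 0.30. Genes with fewer such introns, also picked after their values were seen, went either way. AT1G02080 (14 introns) was not called, NOXY38 (13) fell by 0.73 and ROF1 (11) rose by 1.73.

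Fewer junction events were listed: 184 alternative 5′ splice sites, 180 alternative 3′ splice sites and 68 skipped exons, with 21, 22 and 7 of them higher in heat. These values are reads on the junctions and are not set against the level of the gene, and 91.6 to 100% of the events in tested genes went in the direction of the gene itself. The alternative 5′ site of AT4G31210 had 80, 80 and 85 reads in WT normal and 17, 18 and 22 in WT heat (p = 1.08e-05 in the authors' deposited table), and the gene fell by 0.68 on the log2 scale. At GUN1, a pentatricopeptide repeat protein of plastid-to-nucleus signalling, 274, 243 and 233 junction reads became 88, 65 and 97, and the gene fell by 1.05. FKBP53, a nuclear immunophilin, differed from these: its alternative 3′ site went from 146, 139 and 135 to 56, 60 and 43 reads while its level was not called (0.03 log2, adjusted p = 0.831, edgeR).

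The WT response was set against that of atcyp18-1 by the test of the difference itself. Of 17296 genes 187 (1.08%) passed, with the WT change above the mutant change in 78 and below it in 109, and 2798 had an unadjusted p under 0.05. The count depended on single libraries: it was 34, 55 and 99 without WT normal replicate 1, 2 and 3, it was 314, 38 and 124 without each WT heat replicate, 57, 111 and 43 without each atcyp18-1 normal replicate and 12, 291 and 22 without each atcyp18-1 heat replicate. Among the list members named above, HSP101 rose by 4.57 in WT and by 5.99 in the mutant (difference -1.42 ± 0.33, SE; adjusted p = 0.0434, edgeR), and PTAC12 fell by 1.23 and by 0.52 (difference -0.71 ± 0.13, adjusted p = 0.0150). For HSFA2 the changes were 7.43 and 7.76, and their difference did not pass.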

How the data were processed

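The deposited table held raw read counts per transcript, per the file headers, with a lowest value of 1, so each value appears to be the reads plus 1. The submitters' processing notes list HTSeq and DESeq. For versions, aligner, splicing caller and build, the sources used here give none. The lowest-numbered annotated transcript stood for each of 23337 genes, except 22 for which an assembled transcript was used. Counts were tested with edgeR 4.0.16 in R 4.3.3 (TMM, filterByExpr, quasi-likelihood test, 4 group means over 12 libraries, 17296 genes tested), and the script was tested on simulated data. CPM values are TMM-scaled. The 12 libraries totalled between 7445585 and 10483144 reads.

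In the authors' deposited splicing tables, junction events are read counts, introns have a scaled signal of intron reads and a ratio of intron to exon reads, and both kinds of table list a ratio of the groups' means and a p-value with no adjustment, as the file headers name them. The heated WT columns of the junction tables carry a header naming the mutant, and they were read as WT heat because each table is the WT comparison and its columns average to the deposited WT heat mean. The intron coordinates fell on GT and AG ends in 98.9% of cases in TAIR10.1, which also gave gene names, positions and promoters.

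The members and all 42 lists were chosen with earlier results of these data known, and no list was tested as a set. Named genes follow a rule: the 12 largest rises and falls and the 6 largest gains and losses of CPM among called nuclear genes, the 4 members of each list with the smallest adjusted p, and for splicing the 3 events of smallest p per type and 6 in list genes. Alternatives were other scalings, filters, tools, transcripts, a replicate block and leaving out each library. Spread within a group exceeded sampling noise for every pair of libraries.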

Additional observations from a re-analysis of the deposited data

Results flagged for a closer look

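In 11 named list genes the WT heat change differed from the mutant heat change by the interaction test (edgeR, Benjamini-Hochberg over all tested genes). For chaperone genes the WT rise was the smaller: the difference, WT minus mutant, was -1.68 ± 0.35 for HSP23.6-MITO (log2, SE; adjusted p = 0.0284), -1.42 ± 0.33 for HSP101 (0.0434), -1.26 ± 0.26 for HSP90.1 (0.0289), -1.25 ± 0.29 for AT2G20560 (0.0432) and -0.99 ± 0.17 for MTHSC70-2 (0.00897). PTAC12 (-0.71 ± 0.13, adjusted p = 0.0150) fell more in WT. CPN60B (-0.52 ± 0.10, adjusted p = 0.0224) fell by 0.47 in WT and stood at 0.04 in the mutant. The WT rise was the larger for CAM6 (0.43 ± 0.10, adjusted p = 0.0455), AT5G16470 (0.46 ± 0.11, 0.0432), CML43 (0.58 ± 0.13, 0.0432) and AT2G41835 (1.33 ± 0.27, 0.0279).

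Leaving out each of the 12 libraries in turn, the difference passed in 11 fits for MTHSC70-2, 9 for PTAC12, 7 for CPN60B, 6 each for HSP23.6-MITO, HSP90.1 and AT2G41835, 4 each for AT2G20560 and AT5G16470, 3 for HSP101 and 2 each for CAM6 and CML43. The highest adjusted p in these fits was 0.131, for AT2G20560 without the first WT normal library.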

How the results depend on the processing

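The number of WT heat calls was 7697 by DESeq2's Wald test and 7746 to 8776 when a library was left out (higher 3829 to 4399, lower 3910 to 4377, at least 2-fold 1580 to 1827, of these 774 to 935 higher and 797 to 899 lower). Plain library sizes gave 2505 higher and 6591 lower calls, 1497 of the latter at least 2-fold. At least 2-fold higher calls were 1228 with no filter on low counts and 475 with a filter of 30 counts in 3 libraries. The interaction gave 22 calls with no filter and 12 to 314 when a library was left out. List medians that changed sign under plain library sizes were those of translation factors (-0.065), tubulins and actins (-0.16), aquaporins (-0.024), alternative oxidases (-0.025), glycolysis (-0.028) and DNA repair (-0.13), and EIN2 gave 0.16 from the transcript with the most reads. Of the 196 named genes, 189 kept their call and direction under plain library sizes and 195 under DESeq2's Wald test. Replicate numbers were shared by the groups but the deviations of same-numbered WT libraries correlated at -0.12, -0.08 and 0.10, so they were not taken as pairs; with a replicate block the WT calls were 8786 and the interaction calls 323. At a deposited p under 0.01 the splicing tables held 48 alternative 5′ sites, 58 alternative 3′ sites, 15 skipped exons (0% higher) and 1005 retained introns (93.9% higher). At a ratio of at least 3 they held 60 (5.0% higher), 49 (2.04%), 15 and 1247 (96.2%). The cause of these shifts was not tested. Depth limits genes with few unheated reads, whose folds are given as ratios or bounds.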
